A study of Mus musculus with 18 samples.

Results

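The genes of the respiratory chain were followed in RNA-seq counts from mouse malignant peripheral nerve sheath tumor (MPNST) cell lines. The members were all genes whose name begins like a subunit or factor of complexes I to V (Nduf, Uqcr, Cox4 to Cox8, Atp5, the 4 Sdh genes and the subunit genes of mitochondrial DNA), with 3 pseudogenes left out. This gave 105 of the 35275 genes in the table, of which 92 are nuclear and 13 lie in mitochondrial DNA. The nuclear members comprised 36 subunits of complex I, 4 of complex II, 8 of complex III, 19 of complex IV including alternative isoforms, and 15 of complex V. A further 10 were assembly or associated factors.

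The lines came from separate tumors raised in wild-type 129 Sv/Jae mice, whose age the labels do not give. An adenovirus carrying Cas9 under the CMV promoter, together with guides, was injected into the sciatic nerve. The guides targeted Nf1 and p53 (genotype Nf1-/-;p53-/-, Nf1/p53 dKO) or Nf1 and the p16 and p19 reading frames of Cdkn2a (Nf1-/-;Cdkn2a-/-, Nf1/Cdkn2a dKO). Each genotype had 3 lines and each line 3 untreated cultures, so that Nf1 was targeted in all 18 cultures and no unedited cells were compared. Each line is 1 tumor, and any infected cell of the nerve could have been edited. The line was taken as the replicate, and the counts of its cultures were summed.

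Total counts were 19560535 to 28312207 per culture and 65206479 to 73065228 per line. Trp53, the p53 gene, had 94.1, 67.5 and 58.7 CPM (counts scaled to a common library size) in Nf1/p53 dKO lines 1, 2 and 3, and 247, 246 and 185 in the Nf1/Cdkn2a dKO lines. Cdkn2a mRNA was not lower in the lines labelled Nf1/Cdkn2a dKO, at 169, 392 and 285 CPM against 363, 279 and 42.9, and Nf1 mRNA overlapped between genotypes. An edited gene may still be transcribed, and these counts do not test the edits. All 9 mesenchymal markers of the labelled cell type were counted, while the Schwann cell markers summed to 8.50 to 79.4 CPM across the Nf1/p53 dKO lines and 6.13 to 62.3 in the other genotype. Of these Sox10 stayed under 1 CPM in every line, whereas Gap43 reached 59.6 CPM and Ngfr 64.3 in single lines. Skeletal muscle markers summed to 93.7 to 428 CPM across the Nf1/p53 dKO lines and 2.11 to 12.5 in the Nf1/Cdkn2a dKO lines. These are bulk cultures, in which fewer cells of a type and less RNA per cell cannot be told apart.

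The respiratory chain passes electrons from NADH and succinate to oxygen and uses the proton gradient this builds to make ATP. Complex I oxidizes NADH, complex II oxidizes succinate, complex III reduces cytochrome c, complex IV reduces oxygen, and complex V is the ATP synthase. All except complex II combine subunits encoded in the nucleus with subunits encoded in mitochondrial DNA, so their production needs both genomes. Rapidly growing tumor cells use the chain to regenerate NAD+ and to supply precursors as well as for ATP.

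The nuclear genome carries a long copy of part of mitochondrial DNA, and its pieces are annotated as separate genes. This decides where a short read from a mitochondrial transcript can be placed, so the sequences are shown before the levels. The copy lies on chromosome 1 (GRCm38, chr1:24611535-24616197, minus strand). Over the aligned positions mt-Co2 was identical to the piece Gm28661 at 681 of 681 bases, mt-Atp6 to Gm10925 at 678, mt-Co3 to Gm28437 at 783 and mt-Nd4l to Gm10222 at 294. mt-Nd3 (chrM:9459-9806, plus strand) differed from Gm28438 (chr1:24612775-24613119, minus strand) at 1 of 345 positions, T3C, counted from 1 at the 5′ end of the gene. The first 120 bases of both genes are given with that base in capitals.
mt-Nd3: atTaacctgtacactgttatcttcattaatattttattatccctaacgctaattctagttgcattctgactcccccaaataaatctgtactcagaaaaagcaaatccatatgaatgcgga
Gm28438: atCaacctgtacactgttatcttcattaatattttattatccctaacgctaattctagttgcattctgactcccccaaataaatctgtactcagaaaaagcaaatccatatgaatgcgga
A read that does not cover the third base matches both places equally well. How the authors' counting treated such reads is not given in the sources used here.

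The promoters of nuclear respiratory chain genes are known for sites of NRF1, GABPA (NRF2 in the older respiratory literature, distinct from the antioxidant factor Nfe2l2) and YY1. Windows of 250 bases before to 50 after the transcription start (RefSeq, GRCm38.p6) were matched for 73 of the 92 nuclear members, 5 of which had 2 windows. On both strands, the NRF1 core GCATGCGC was present in 12 members (16.4%) and in 3.05% of the 27025 genes with a window. The GABPA core CCGGAAG was present in 17 members (23.3%) and 9.93% of all genes. The YY1 core AAGATGGC was present in 9 members (12.3%) and 3.19% of all genes. In all, 32 members held at least 1 of the 3 motifs and 6 held 2 kinds, Atp5j, Atp5k, Atp5l, Cox6a1, Sdhb and Uqcr11. The NRF1 core contains a palindrome, so matches on the 2 strands can overlap, as they do in Cox6a1. One window per complex shows how they are placed, from 5′ to 3′ on the strand of the gene with the motifs in capitals. The windows are those of Ndufc1 (chr3:51408906-51409205, minus strand, YY1), Sdhb (chr4:140961021-140961320, plus strand, NRF1 then GABPA), Uqcr11 (chr10:80406772-80407071, minus strand, GABPA then NRF1), Cox6a1 (chr5:115348909-115349208, minus strand, NRF1 on both strands, then GABPA reversed) and Atp5j (chr16:84834927-84835226, minus strand, YY1 then GABPA).
Ndufc1: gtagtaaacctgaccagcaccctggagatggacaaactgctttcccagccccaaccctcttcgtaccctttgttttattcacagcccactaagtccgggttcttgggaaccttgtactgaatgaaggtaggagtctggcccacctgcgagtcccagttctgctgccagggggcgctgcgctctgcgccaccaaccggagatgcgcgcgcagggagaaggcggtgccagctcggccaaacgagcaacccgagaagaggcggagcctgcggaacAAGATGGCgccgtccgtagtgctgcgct
Sdhb: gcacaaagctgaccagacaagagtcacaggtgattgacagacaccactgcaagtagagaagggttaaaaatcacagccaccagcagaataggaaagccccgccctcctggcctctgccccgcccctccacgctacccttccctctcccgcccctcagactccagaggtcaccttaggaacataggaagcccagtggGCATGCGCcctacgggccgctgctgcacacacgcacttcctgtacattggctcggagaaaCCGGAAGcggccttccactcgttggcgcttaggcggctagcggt
Uqcr11: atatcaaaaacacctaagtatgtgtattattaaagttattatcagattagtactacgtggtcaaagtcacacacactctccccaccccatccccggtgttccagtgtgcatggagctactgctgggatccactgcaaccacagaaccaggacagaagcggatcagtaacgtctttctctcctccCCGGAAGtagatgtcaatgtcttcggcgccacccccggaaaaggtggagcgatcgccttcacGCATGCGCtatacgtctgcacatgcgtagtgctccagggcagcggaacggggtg
Cox6a1: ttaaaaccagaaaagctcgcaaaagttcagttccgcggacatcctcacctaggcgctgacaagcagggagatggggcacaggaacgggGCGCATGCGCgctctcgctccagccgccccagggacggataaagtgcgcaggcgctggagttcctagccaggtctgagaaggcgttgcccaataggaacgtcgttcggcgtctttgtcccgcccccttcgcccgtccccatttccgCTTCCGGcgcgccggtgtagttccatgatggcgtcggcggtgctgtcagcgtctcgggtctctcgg
Atp5j: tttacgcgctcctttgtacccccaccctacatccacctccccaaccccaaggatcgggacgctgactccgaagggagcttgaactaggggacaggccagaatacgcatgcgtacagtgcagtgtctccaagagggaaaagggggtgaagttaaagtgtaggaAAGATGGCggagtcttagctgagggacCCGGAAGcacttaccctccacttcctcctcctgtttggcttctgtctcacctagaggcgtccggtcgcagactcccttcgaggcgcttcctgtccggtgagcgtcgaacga
In Ndufc1 the YY1 letters begin 23 bases after the start site, and in Sdhb the NRF1 letters begin 54 bases before it. A match is a description of the letters and not of binding.

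Of the 105 members, 100 passed the filter on low counts. The 5 that did not were Cox7b2 with 0 counts over all cultures, Cox8c with 3, mt-Atp8 with 6, Cox8b with 21 and Cox6b2 with 28. Levels were compared between genes only per length, as CPM per kb of the principal transcript. The median nuclear subunit lay at 51.3 ± 7.60 CPM per kb in complex I, 75.7 ± 12.8 in complex II, 92.5 ± 15 in complex III, 97.2 ± 12 in complex IV and 162 ± 30.2 in complex V (mean ± SD of the 6 lines' medians). The median assembly factor lay at 9.41 ± 1.36 CPM per kb. The median of all 13 mitochondrial genes lay at 1010 ± 160 CPM per kb, but 6 of these have uncertain counts, and the middle one of the other 7 is mt-Nd2 at 2258. The spread between lines was smaller than the step from complex I to complex V, whereas the intervals of complexes II, III and IV overlapped. The complex IV median takes in alternative isoforms from 0 (Cox7b2) to 1.88 CPM per kb (Cox7a1). Its other subunits ran from 88.3 (Cox5a) to 419 (Cox8a), so its place among the complexes is not that of the common subunits. On the same scale the most abundant members were mt-Co1, the catalytic subunit of complex IV, at 6290 CPM per kb, and among nuclear genes Atp5b, the catalytic beta subunit of ATP synthase, at 811. Cox8a, a small subunit of complex IV, reached 419, Uqcrh, the hinge subunit of complex III, 176, Ndufb9 of complex I 144, Sdhb, the iron-sulfur subunit of complex II, 104, and Cox7a2l, a factor of supercomplex assembly, 73.7.

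The first question was whether the members differed between genotypes. No member passed an adjusted p of 0.05 in edgeR's quasi-likelihood test on the 6 lines, in which 1.8% of the 15207 genes tested did. Most fitted differences pointed to lower levels in the Nf1/Cdkn2a dKO lines, 71 of 100, with a median log2 fold change (Nf1/Cdkn2a over Nf1/p53) of -0.13 against -0.02 over all genes tested. At an unadjusted p under 0.05, 15 members were lower and 1 was higher, against 12.5% of all genes lower and 9.81% higher. The 3 Nf1/Cdkn2a dKO lines lay wholly below the other genotype in 25 members (16.6% of all genes did) and wholly above in 4 (14.8% of all genes). The 15 and the 25 both take in Ndufa4l2 and Cox4i2, which passed the filter only through the genotype in which they were high.

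The number of members fitted lower depended most on Nf1/p53 dKO line 3. Their median and the number at an unadjusted p under 0.05 depended on other lines as well. Without line 3, 8 members were lower at an unadjusted p under 0.05 (11.7% of all genes) and 3 higher (9.93% of all genes). Then 58 of 100 were fitted lower, and the median was -0.07. Without Nf1/p53 dKO line 1 or line 2 the median moved the other way, to -0.19 in both cases. Then 69 and 73 members were fitted lower. At an unadjusted p under 0.05, 14 and 16 were lower (11.4 and 11.3% of all genes) and 1 and 0 higher (10.0 and 9.0% of all genes). Leaving out any Nf1/Cdkn2a dKO line gave 7 to 9 lower and 0 or 1 higher, where 9.40 to 10.6% of all genes were lower and 7.04 to 7.59% higher. Other tests called more. DESeq2 on the 6 lines called 6 members at an adjusted p under 0.05 (14.3% of all genes), Uqcr10, Ndufa5, Atp5f1, Ndufa4l2, Ndufc1 and Ndufb5, all lower. limma-voom on all 18 cultures, the line entering as a random term, called 4 (16.6% of all genes), Ndufa5, Atp5f1, Ndufv2 and Ndufa6, all lower. Scaling to raw totals called Ndufa5 (2.78% of all genes), and omitting the filter called Ndufa4l2 (1.72% of all genes). Taking the cultures as separate samples called 36 of 97 members (46.5% of all genes), and 34 of 97 with the culture number as a block (43.3% of all genes). In both of these the cultures of 1 tumor count as independent. In each of these tests the share of members called, 0.962 to 37.1%, was below that of all genes.

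**Figure D1:**
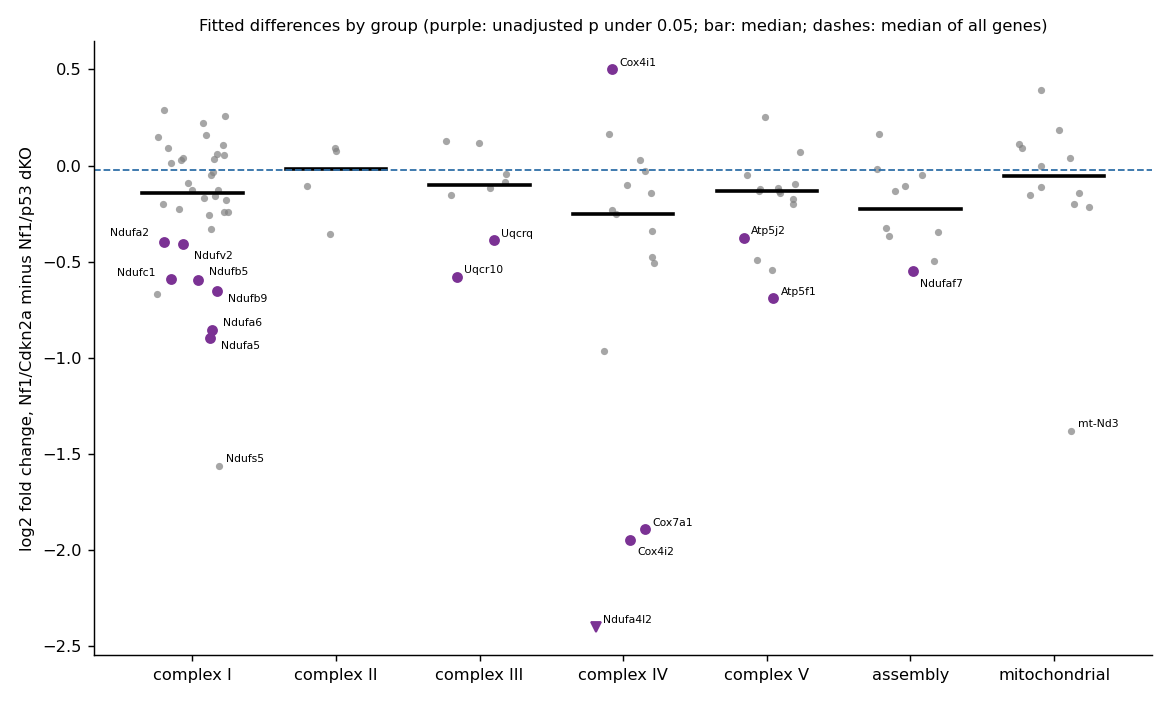
Fitted log2 fold change of each tested member (vertical axis, Nf1/Cdkn2a dKO over Nf1/p53 dKO) by group (horizontal axis); each point is a gene, purple points have an unadjusted p under 0.05 in edgeR's test, bars are group medians and the dashed line is the median of all genes. Most points lie below the dashed line, Cox4i1 is the purple point above 0, and Ndufa4l2, fitted at -6.37, is drawn as a triangle at -2.4.

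Complex I had the largest group of nuclear subunits. Of 36 subunits, 23 had a negative and 13 a positive fitted value for Nf1/Cdkn2a over Nf1/p53, with a median log2 fold change of -0.14; 7 were lower and 0 higher at an unadjusted p under 0.05 (12.5 and 9.81% of all genes). Ndufa5, a subunit of the matrix arm, had 44.7, 57.2 and 67.4 CPM in Nf1/p53 dKO lines 1, 2 and 3, and 32.7, 28.0 and 30.2 in the Nf1/Cdkn2a dKO lines. All Nf1/Cdkn2a dKO lines lay below all Nf1/p53 dKO lines, with a log2 fold change of -0.90 (SE 0.187, edgeR adjusted p = 0.0637), the lowest p among the subunits of complex I. Ndufc1, a small membrane-arm subunit whose promoter is shown above, had 38.3, 27.8 and 32.6 CPM against 22.3, 20.9 and 22.4. Its lines were also separate (log2 fold change -0.59, SE 0.172, edgeR adjusted p = 0.116).

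Ndufb5, another subunit of the membrane arm, had 37.9, 42.5 and 54.7 CPM against 29.3, 30.8 and 29.3 (log2 fold change -0.59, edgeR adjusted p = 0.119). Ndufa6 and Ndufb7, accessory subunits, were among the 3 members with the widest spread between lines of a genotype of those with at least 10 CPM. For Ndufa6 the Nf1/p53 dKO lines had 51.4, 38.6 and 86.9 CPM and the Nf1/Cdkn2a dKO lines 36.6, 29.7 and 31.5. For Ndufb7 the values were 62.7, 51.8 and 144 against 55.1, 59.4 and 48.3 CPM, with lines 1 and 3 above the other genotype and line 2 within it. Ndufb9 showed the same high line, with 102.5, 101.3 and 167.3 CPM against 90.2, 63.8 and 82.3 (log2 fold change -0.65, edgeR adjusted p = 0.191).

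Of the 36 subunits of complex I, 13 had a positive fitted value and 2 lay wholly above the other genotype (14.8% of all genes did). Ndufa8, an accessory subunit, had the highest fitted fold change of the complex, with 70.2, 69.6 and 83.1 CPM against 89.0, 87.5 and 95.7. The lines did not overlap, and the difference did not pass the test (log2 fold change 0.29, SE 0.131, edgeR adjusted p = 0.254). Ndufs1, the largest iron-sulfur subunit of the electron path, had 91.6, 85.6 and 66.0 CPM against 99.5, 99.3 and 92.0, again without overlap. The core subunit Ndufv1, at 74.4 to 126 against 85.5 to 110.5 CPM, overlapped between genotypes and was highest in Nf1/p53 dKO line 3.

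Ndufs5 had the lowest fitted fold change of complex I, and its counts are uncertain. It had 1.78, 13.8 and 3.87 CPM across the Nf1/p53 dKO lines and 1.77, 2.26 and 2.57 in the Nf1/Cdkn2a dKO lines, so that line 2 alone stood out (log2 fold change -1.56, SE 0.738). The processed copy BC002163 on chromosome 16 received 14903 counts against 1827 for Ndufs5 itself. The summed levels of gene and copy were 32.5, 42.9 and 61.4 CPM against 34.5, 33.4 and 35.6. On the sums the log2 ratio of genotype means was -0.40, with line 3 rather than line 2 highest. Ndufb2 had the lowest level per length of the complex, 0.337 CPM per kb, at 1.02 to 1.96 CPM. The length used was that of a principal transcript of 4371 bases, the longest in the complex. Its mean of 1.47 CPM over the lines was the lowest of the complex as well.

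Complex II, which has no mitochondrially encoded subunit, had the group median nearest 0. The median log2 fold change of its 4 genes was -0.02, and none had an unadjusted p under 0.05 (12.5% of all genes were lower and 9.81% higher). Sdhd, a membrane anchor, had 88.9, 98.7 and 157.8 CPM across the Nf1/p53 dKO lines and 86.9, 91.8 and 91.0 in the Nf1/Cdkn2a dKO lines, a difference made by line 3 (log2 fold change -0.36, SE 0.231). Sdhc, the partner anchor, had 98.9, 97.4 and 65.5 CPM against 95.9, 93.6 and 89.5. Line 3 was thus the lowest line for Sdhc and the highest for Sdhd. The catalytic subunits Sdha, at 180 to 217 against 196 to 206 CPM, and Sdhb, at 97.7 to 156 CPM with at most 125 in the Nf1/Cdkn2a dKO lines, overlapped.

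In complex III, 6 of 8 genes were fitted lower and the median was -0.10. Uqcr10, a small accessory subunit, had 69.7, 67.9 and 94.7 CPM against 55, 50.4 and 50.1. Its lines were separate (log2 fold change -0.58, SE 0.169, edgeR adjusted p = 0.117). Uqcrq, the ubiquinone-binding subunit, had 103.7, 109.4 and 134.8 CPM against 87.8, 84.5 and 93.4 and was separate too (log2 fold change -0.39, edgeR adjusted p = 0.184). Uqcrh, the hinge protein, varied most between lines, with 73.0, 73.5 and 147.4 CPM against 85.9, 101.3 and 97.7. Uqcr11, whose promoter is among those shown, was highest in an Nf1/Cdkn2a dKO line, with 44.0, 48.5 and 64.6 CPM against 44.6, 50.0 and 77.0. The core proteins Uqcrc1 and Uqcrc2 and the Rieske iron-sulfur protein Uqcrfs1 overlapped between genotypes, and each was highest in Nf1/p53 dKO line 3, at 248, 163 and 133 CPM.

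Complex IV had the most negative median among the subunit groups, -0.25, and the only member with an unadjusted p under 0.05 in the higher direction. Of its 19 genes 15 were tested, 12 fitted lower and 3 higher. The median takes in the low-level isoforms Ndufa4l2 (-6.37), Cox4i2 (-1.95), Cox7a1 (-1.89) and Cox6a2 (-0.965), each at 2.10 CPM or less in every line. It is therefore not the median of the common subunits alone, and its rank among the groups is not read. Several subunits of this enzyme exist as isoforms, a common one and one used in muscle, lung, testis or low oxygen. Cox4i1, the common form of the regulatory subunit 4, had 176, 161 and 128 CPM across the Nf1/p53 dKO lines and 217, 262 and 179 in the Nf1/Cdkn2a dKO lines. The lines did not overlap (log2 fold change 0.50, SE 0.198, edgeR adjusted p = 0.204). Its counterpart Cox4i2, the lung and hypoxia-linked isoform, had 0.464, 0.283 and 0.152 CPM against 0.0642, 0.0865 and 0.0782, from 82 counts in all (log2 fold change -1.95, SE 0.574, edgeR adjusted p = 0.118). With 36, 20 and 11 counts against 4, 6 and 5, Cox4i2 passed the filter on low counts only through the genotype in which it was high. Per length, Cox4i1 was at 245 CPM per kb and Cox4i2 at 0.257, so that the common isoform made up nearly all of the transcript in every line.

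Cox7a2, the common form of subunit 7a, had 59.3, 76.7 and 107.7 CPM against 58.9, 56.3 and 56.3, the groups just clear of each other (log2 fold change -0.51, edgeR adjusted p = 0.246). Cox7a1, its heart and muscle isoform, had 1.82, 0.453 and 1.23 CPM against 0.112, 0.404 and 0.422 (log2 fold change -1.89, SE 0.715, edgeR adjusted p = 0.188). Of the other muscle isoforms, Cox6a2 stayed between 0.0433 and 0.283 CPM and overlapped, and Cox8b had 17 counts in the Nf1/p53 dKO lines and 4 in the Nf1/Cdkn2a dKO lines. Of the 8 tested muscle markers 2 fell in the Nf1/Cdkn2a dKO lines, Myf5 and Cdh15 (1.8% of all genes were called). The lines lay wholly lower in 4 (16.6% of all genes) and overlapped between genotypes in 4. Myod1, a myogenic master regulator, had 1.75, 0.269 and 204 CPM across the Nf1/p53 dKO lines and 0 in each Nf1/Cdkn2a dKO line, and did not pass the test (edgeR adjusted p = 0.172). Among the Nf1/p53 dKO lines, Cox7a1 was highest in line 1 and Myod1 in line 3, and both were lowest in line 2. The part of muscle-type cells in the level of Cox7a1 was not tested. The common forms Cox6a1, at 194, 225 and 257 CPM against 195, 183 and 191, and Cox6b1, at 99.1 to 177 against 118 to 120 CPM, overlapped between genotypes. Cox7b, at 97.0 to 124 against 89.1 to 99.6 CPM, and Cox8a, at 174 to 333 against 193 to 254 CPM, overlapped too. The testis isoforms Cox6b2, Cox7b2 and Cox8c stayed at or below 0.168 CPM.

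Ndufa4, named for complex I but a subunit of complex IV, had 128, 168 and 174 CPM against 127, 129 and 115 (log2 fold change -0.34, SE 0.160). Ndufa4l2, its hypoxia-induced paralog, showed the widest relative contrast of all members at a very low level. It had 0.387, 1.78 and 2.10 CPM across the Nf1/p53 dKO lines, and 0, 0 and 0.0469 in the Nf1/Cdkn2a dKO lines. These were 308 counts against 3, a 91.1-fold difference after scaling (95% exact interval 30.9 to 444, counting error only), with edgeR adjusted p = 0.0597. Ndufa4l2 passed the filter on low counts only through the genotype in which it was high. The fitted value of -6.37 depends on the prior count and ran from -9.65 to -5.80 with a line left out. Per length Ndufa4l2 reached 0.771 CPM per kb and Ndufa4 230.

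**Figure D2:**
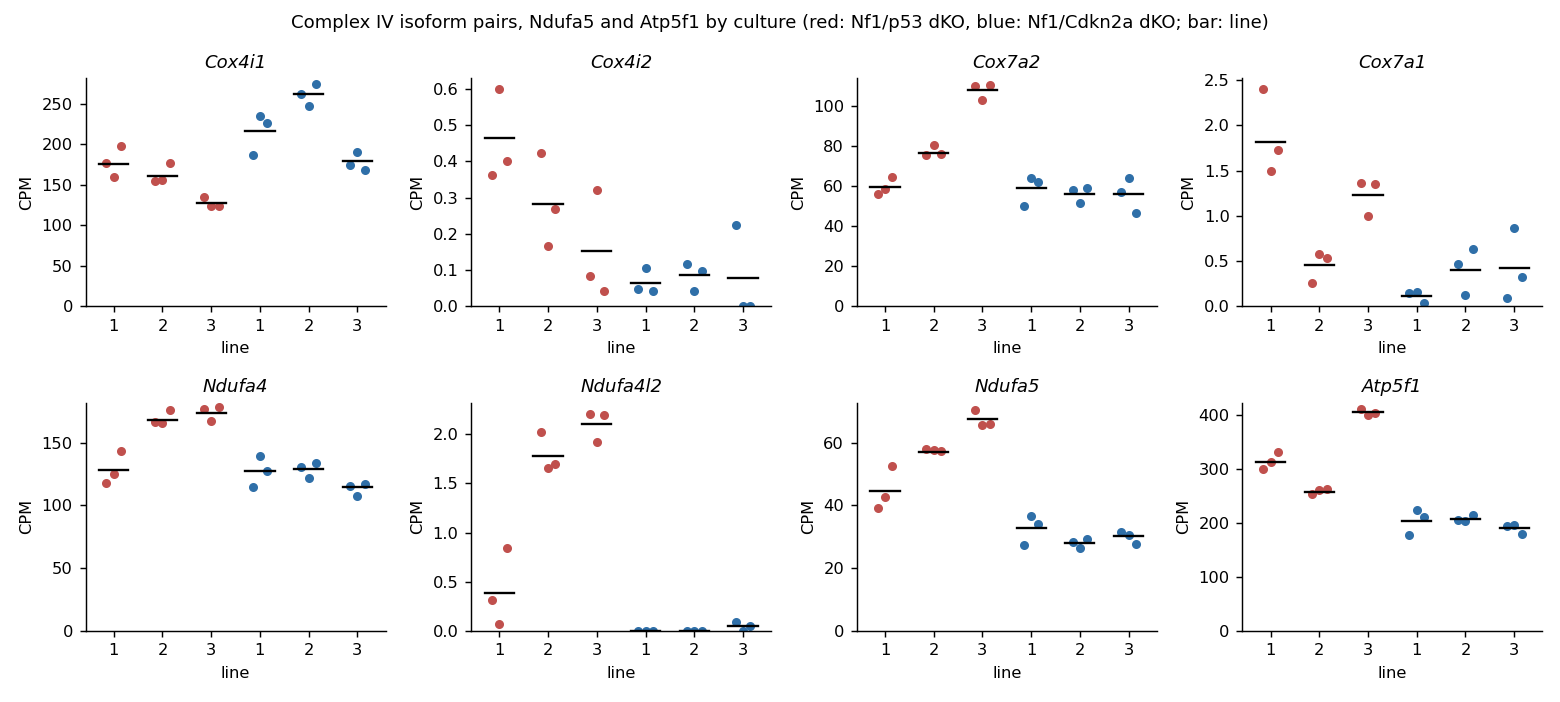
CPM (vertical axes, starting at 0) of 3 isoform pairs of complex IV, Ndufa5 and Atp5f1 in each culture (points) and line (bars), red for Nf1/p53 dKO and blue for Nf1/Cdkn2a dKO. Cox4i1 is higher and Cox4i2, Cox7a1, Ndufa4l2, Ndufa5 and Atp5f1 are lower in every Nf1/Cdkn2a dKO line than in any Nf1/p53 dKO line, and the vertical scale of the minor isoforms ends below 3 CPM.

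In complex V, 13 of 15 genes were fitted lower, with a median of -0.13. Atp5f1, subunit b of the peripheral stalk, had 312, 257 and 405 CPM against 204, 207 and 191. Its lines were separate (log2 fold change -0.69, SE 0.191, edgeR adjusted p = 0.106), but 38.7% of the 50-base words of its transcript also occur in other annotated genes, pseudogenes among them. Atp5j2, subunit f, had 122, 123 and 153 CPM against 105, 100 and 101 (log2 fold change -0.38, SE 0.140, edgeR adjusted p = 0.183). Atp5g2, 1 of the 3 genes for the rotor ring subunit c, had 199, 139 and 244 CPM against 149, 117 and 134, with 87.4% of its words shared. Atp5j, coupling factor 6, pointed the other way without overlap, with 85.2, 87.9 and 75.9 CPM against 105, 101 and 89.8 (log2 fold change 0.25, SE 0.130). The alpha and beta subunits of the catalytic core, Atp5a1 and Atp5b, overlapped between genotypes. Atp5b had 1427, 1461 and 1853 CPM against 1348, 1438 and 1792, and Atp5a1 had 693, 742 and 1014 against 737, 779 and 732. Atp5c1, the gamma subunit, was separate by a narrow margin, at 200.3, 206 and 250.7 CPM against 195, 199.9 and 187.

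The assembly and associated factors had a median of -0.23, with 9 of 10 fitted lower and 1 lower at an unadjusted p under 0.05 (12.5% of all genes). This was Ndufaf7, a methyltransferase that acts on complex I, with 18.4, 24.3 and 16.0 CPM against 12.7, 13.1 and 14.4 (log2 fold change -0.55, SE 0.217, edgeR adjusted p = 0.204). Ndufaf3, a complex I assembly factor and the only one fitted higher, had 9.71, 5.43 and 9.81 CPM against 7.77, 8.35 and 11.8, with overlap. Cox7a2l was nearly even, at 92.0, 83.4 and 64.0 CPM against 83.0, 77.3 and 76.3. The summed level of this group was 234, 232 and 222 CPM against 206, 206 and 193, with no high line 3. Cox7a2l is the largest part of that sum and was lowest in line 3. With each gene centred on its own mean log2 CPM, the median of the group in line 3 was 0.25, the highest of the 6 lines.

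No mitochondrial gene passed the test between genotypes. Of the 12 tested, 6 were fitted higher and 6 lower, the median was -0.06, and unadjusted p values in edgeR's test ran from 0.124 to 0.999. Those fitted higher included mt-Atp6, mt-Co2, mt-Co3 and mt-Nd4l, and those fitted lower mt-Nd3, all with uncertain counts because of their nuclear copies. Of the remaining genes, mt-Nd1 was fitted at 0.04 and mt-Nd6 at 0.00. mt-Co1, mt-Cytb, mt-Nd2, mt-Nd4 and mt-Nd5 were fitted lower, at -0.22 to -0.11. The median of -0.06 takes in the genes with uncertain counts, and the middle one of the other 7 was mt-Nd4, at -0.14. mt-Co1 had 10920, 10120 and 9649 CPM across the Nf1/p53 dKO lines and 10280, 8032 and 9287 in the Nf1/Cdkn2a dKO lines. mt-Cytb, the mitochondrial subunit of complex III, had 5034, 4551 and 3901 against 4187, 3293 and 4120. Both overlapped between genotypes. Of the complex I subunits, mt-Nd1, in the membrane arm beside the quinone site, had 4759, 4477 and 3728 CPM against 4372, 4532 and 4413, the narrowest spread within genotypes of these genes. mt-Nd2 had 3061, 2498 and 1954 against 2321, 1962 and 2264, and mt-Nd5 had 2790, 2497 and 1797 against 2543, 1863 and 2151. mt-Nd4, with mt-Nd2 and mt-Nd5 a proton-pumping subunit, had 1846, 1507 and 1117 against 1450, 1252 and 1342. mt-Nd6, the one protein gene of the light strand, had 664, 552 and 422 against 621, 490 and 527. All 7 of these genes were highest in line 1 of Nf1/p53 dKO, and the 5 of complex I were lowest in its line 3.

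Counted levels of the mitochondrial genes lay in separate ranges. The 7 genes just named lay between 1030 and 6290 CPM per kb, and at most 62.2% of their 50-base words occurred in another annotated gene. mt-Co2, mt-Co3, mt-Atp6, mt-Nd3 and mt-Nd4l, with 98.0 to 100% of their words shared, lay between 2.34 and 21.9 CPM per kb, although mt-Co2 and mt-Co3 encode core subunits of the same enzyme as mt-Co1. mt-Atp8, with 6 counts, shares 0% with an annotated gene, but on the genome it lies between mt-Co2 and mt-Atp6, whose copies Gm28661 and Gm10925 flank an unannotated stretch of chromosome 1 not searched here. The copies received few counts themselves, 0.00735 to 0.00957% of all counts by line. The part of multiply placed reads in the low levels was not tested, and the levels of these 6 genes are not read against the other 7.

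The counts of mt-Nd3 and its copy went opposite ways. mt-Nd3 had 1.07, 6.59 and 1.12 CPM across the Nf1/p53 dKO lines and 0.866, 1.27 and 1.24 in the Nf1/Cdkn2a dKO lines, so line 2 of Nf1/p53 dKO stood alone (log2 fold change -1.38, SE 0.782). Its copy Gm28438 was lowest in that same line, at 11.9, 7.09 and 12.4 CPM against 10.3, 11.8 and 11.2. The sums of both were level, at 13, 13.7 and 13.6 against 11.2, 13.1 and 12.5 CPM, with a log2 ratio of genotype means of -0.13. mt-Atp6 had 11.3, 9.65 and 8.93 CPM against 10.1, 18.5 and 10.7, with 1 high Nf1/Cdkn2a dKO line. There the copy Gm10925 was high in the same line, 32.6 CPM against 18.2 to 24.4 in the others. mt-Co2 stayed between 13.8 and 16.8 CPM, mt-Co3 between 9.36 and 11.4 and mt-Nd4l between 0.443 and 0.902, all with overlap.

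**Figure D3:**
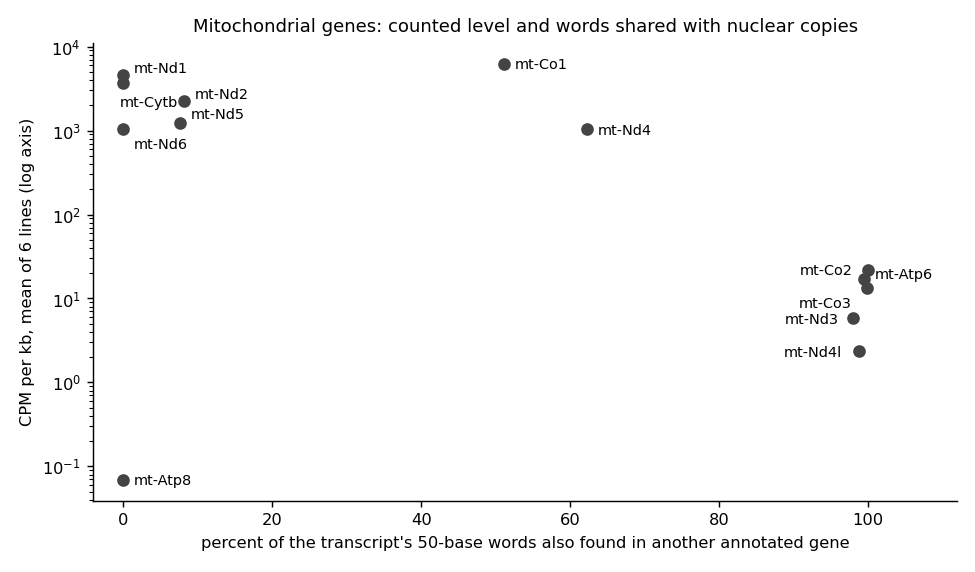
Mean CPM per kb over the 6 lines (vertical log axis) of each mitochondrial gene against the percent of its 50-base words found in another annotated gene (horizontal axis). The 5 genes with at least 98.0% of words shared lie at or below 21.9 CPM per kb, 7 genes with at most 62.2% lie at or above 1030, and mt-Atp8 lies apart at 0.069.

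The second question was the balance of the nuclear and mitochondrial genes. Mitochondrial members took 3.09, 2.67 and 2.40% of all counts in Nf1/p53 dKO lines 1, 2 and 3, and 2.47, 2.07 and 2.27% in the Nf1/Cdkn2a dKO lines. The means were 2.72% ± 0.350 and 2.27% ± 0.197 (SD, n = 3 lines), and the lines overlapped. Nuclear members took 0.926, 0.888 and 1.20% against 0.815, 0.834 and 0.841%, or 1.00% ± 0.168 and 0.830% ± 0.0135. The nuclear share of raw totals was lower in all 3 Nf1/Cdkn2a dKO lines. With TMM scaling the summed nuclear members overlapped, at 8719, 8712 and 11270 CPM against 8527, 8636 and 8939. With 3 lines a genotype and the members summed, no test was applied.

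The ratio of mitochondrial to nuclear counts was 3.34, 3.01 and 2.01 across the Nf1/p53 dKO lines and 3.03, 2.49 and 2.70 in the Nf1/Cdkn2a dKO lines. The means, 2.79 ± 0.696 and 2.74 ± 0.272 (SD, n = 3 lines), were nearly the same, while line 3 of Nf1/p53 dKO stood below the rest. Its 3 cultures had ratios of 1.93 to 2.07, below all other 15 cultures, which ran from 2.29 to 4.11. Within complex I the ratio of summed mitochondrial to summed nuclear CPM was 6.5, 5.89 and 3.78 against 5.97, 5.45 and 5.47. In complex III it was 7.01, 6.33 and 3.81 against 5.79, 4.29 and 5.76, and in complex IV 8.36, 7.32 and 5.26 against 7.15, 5.70 and 6.79. The same line was lowest in all 3 complexes. In complex V the ratio was 0.00171 to 0.00478, and its mitochondrial genes, mt-Atp6 and mt-Atp8, are both among the low-counted ones.

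**Figure D4:**
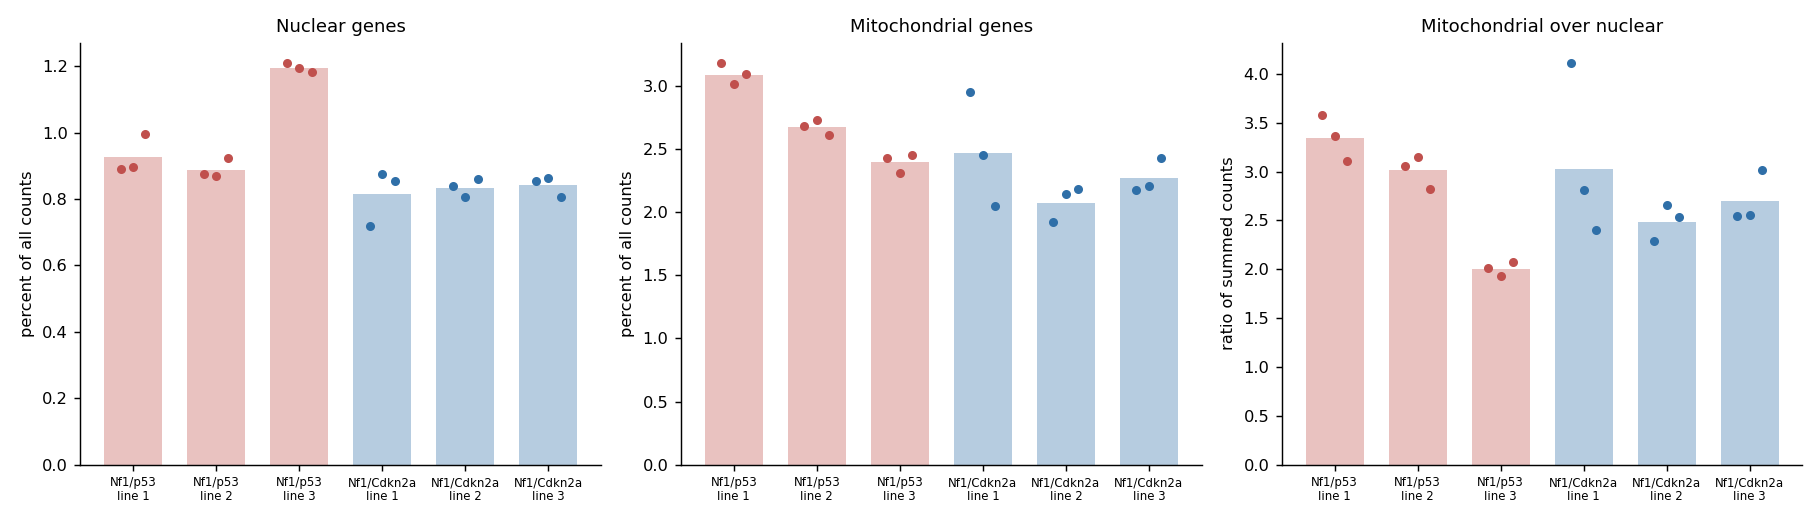
Percent of all counts in nuclear members (left) and in mitochondrial members (middle), and the ratio of mitochondrial to nuclear counts (right), by line (bars, from summed cultures) and culture (points), red for Nf1/p53 dKO and blue for Nf1/Cdkn2a dKO. Line 3 of Nf1/p53 dKO has the highest nuclear share, 1.20%, and the lowest ratio, 2.01; 1 culture of Nf1/Cdkn2a dKO line 1 has the highest ratio, 4.11.

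Line 3 of Nf1/p53 dKO stood apart in the nuclear subunits; it was singled out after its values were seen. Of 78 tested nuclear subunits, 52 (66.67%) were highest in this line, against 25.86% of all genes tested. By complex these were 20 of 36 in complex I, 3 of 4 in complex II, 7 of 8 in complex III, 10 of 15 in complex IV and 12 of 15 in complex V, and 5 of 10 assembly factors. The mitochondrial genes were at their lowest there in 8 of 12 cases (66.67%, against 25.48% of all genes). These include mt-Atp6, mt-Co2 and mt-Nd4l, whose counts are uncertain, and otherwise only genes of complex I. mt-Co1 and mt-Cytb were lowest in Nf1/Cdkn2a dKO line 2. Mitochondrial genes were highest in line 1 of Nf1/p53 dKO in 9 of 12 cases (75%, against 14.15% of all genes), among them mt-Co3 and mt-Nd4l with uncertain counts.

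The shift in line 3 had the same sign in all 5 complexes. With each gene centred on its own mean log2 CPM over the lines, the median in line 3 was 0.29 in complex I, 0.28 in II, 0.39 in III, 0.45 in IV, 0.39 in V and 0.25 in the assembly factors, but -0.28 in the mitochondrial genes. The mitochondrial median takes in the genes with uncertain counts. Medians of the subunit groups in the other 5 lines lay between -0.15 and 0.06. The summed levels of the 5 complexes were highest in line 3 too, but not that of the assembly factors, whose largest part, Cox7a2l, was lowest there. Complex I summed to 2387 CPM in line 3 and 1855 to 2019 in the other lines, complex III to 1025 against 716 to 768, complex IV to 1839 against 1310 to 1441 and complex V to 5205 against 3755 to 4215. Complex II summed to 596 against 474 to 507. The mitochondrial genes summed to 22600 CPM in line 3, within the 21470 to 29110 of the others. Line 3 was also the line with most Myod1 and with the lowest Cdkn2a; whether either bears on the members was not tested.

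**Figure D5:**
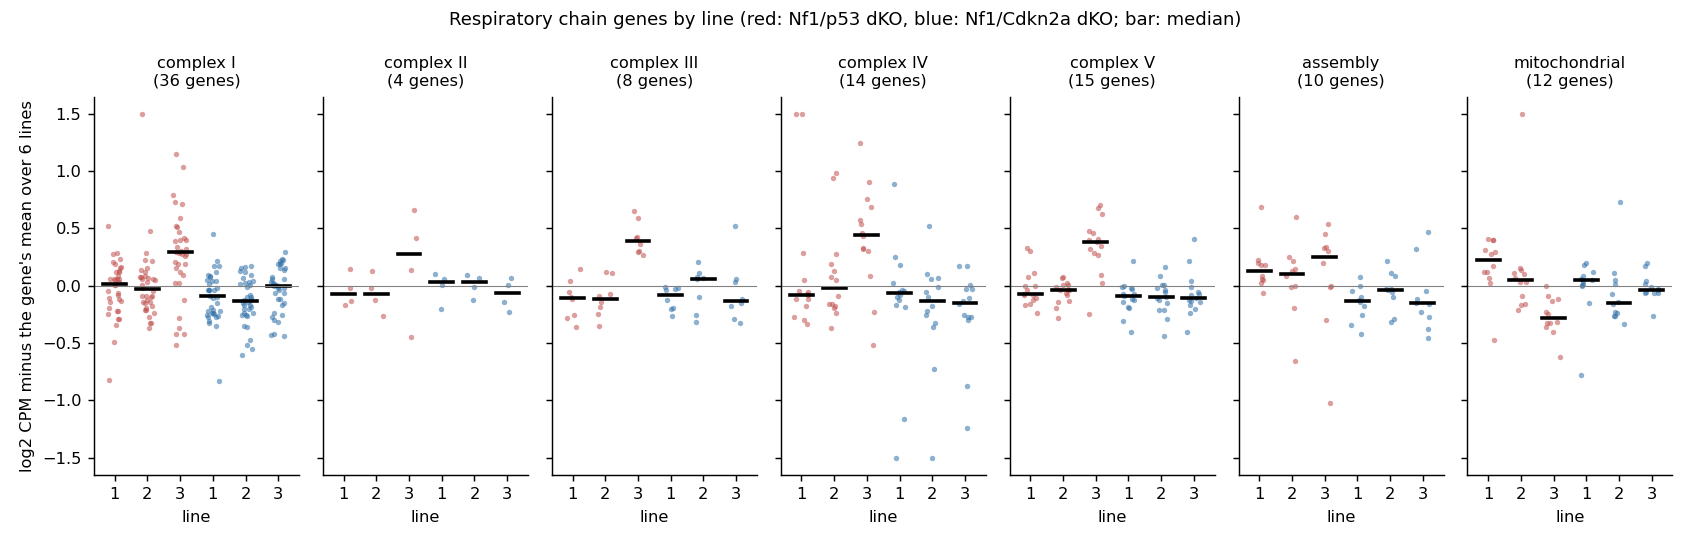
log2 CPM of each tested member minus its mean over the 6 lines (vertical axis) by group and line (horizontal axis), red for Nf1/p53 dKO and blue for Nf1/Cdkn2a dKO, with bars at the medians; points beyond 1.5 are drawn at 1.5, and Ndufa4l2, at 0 counts in 2 lines, is left out. Line 3 of Nf1/p53 dKO has the highest median in every nuclear group, 0.25 to 0.45, and the lowest among the mitochondrial genes, -0.28.

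Spread between lines of a genotype exceeded spread between cultures for most members. Among the 89 tested members of at least 10 CPM, the median SD of log2 CPM was 0.139 between cultures of a line and 0.217 between lines of a genotype, and it was larger between lines in 71.

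The other genes of the pathway, from lists drawn up with earlier results of these data known, gave few calls, and none of them held without Nf1/Cdkn2a dKO line 1, where edgeR called 0 of all genes. Of 16 electron carriers and further subunits, all were tested and 1 fell (1.8% of all genes were called). This was Etfdh, which passes electrons from fatty acid oxidation to ubiquinone, at 80.5, 72.0 and 79.6 CPM against 32.7, 29.1 and 37.9 (log2 fold change -1.22, SE 0.151, edgeR adjusted p = 0.0287). Cyc1, cytochrome c1 of complex III, which the name rule does not take in, had 191, 170 and 312 CPM against 123, 118 and 111 (log2 fold change -0.93, edgeR adjusted p = 0.0961). The highest of this list was Usmg5, a small ATP synthase subunit (0.40).

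Of the 9 tested regulators of mitochondrial biogenesis, 1 fell (1.8% of all genes were called). This was Ppargc1b, a coactivator of respiratory genes, with 3.91, 3.89 and 13.2 CPM across the Nf1/p53 dKO lines and 0.353, 0.505 and 0.172 in the Nf1/Cdkn2a dKO lines (log2 fold change -4.34, SE 0.724, edgeR adjusted p = 0.0465). Its relative Ppargc1a had 1.96, 1.17 and 11.4 CPM against 1.65, 1.92 and 2.02 and overlapped. Both coactivators were highest in Nf1/p53 dKO line 3, the line with the high nuclear subunits, as were 25.86% of all genes tested. Whether either coactivator bears on the members was not tested. Nrf1, at 40.3 to 49.2 against 35.9 to 42.5 CPM, Gabpa, at 60.7 to 93.1 against 96.4 to 110 CPM, and Yy1, at 61.5 to 101 against 76.6 to 82.8 CPM, whose motifs are shown above, were not called. Esrra, a nuclear receptor partner of these coactivators, was the highest of the list (log2 fold change 0.57, edgeR adjusted p = 0.400).

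Among 76 tested genes of the mitochondrial ribosome 2 fell, where 1.8% of all genes passed, with 16 lower and 1 higher at an unadjusted p under 0.05 (12.5 and 9.81% of all genes) and a median of -0.18. Mrpl9, of the large subunit, had 63.4, 82.8 and 83.4 CPM against 38.1, 35.2 and 31.6 (log2 fold change -1.13, SE 0.165, edgeR adjusted p = 0.0388). Mrpl13 had 120, 118 and 147 CPM against 75.0, 59.9 and 66.8 (log2 fold change -0.93, edgeR adjusted p = 0.0465). The highest, Mrpl43, was fitted at 0.41. No gene was called among 37 tested assembly factors outside the name rule (4 higher and 6 lower at an unadjusted p under 0.05), 21 genes of mitochondrial DNA expression (0 and 3), 14 of the tricarboxylic acid cycle (0 and 0) or 12 of mitochondrial mass (0 and 3), in edgeR's test. The extremes of these lists ran from Fmc1 (-1.27) to Cox16 (1.13), Top1mt (-0.94) to Tfb2m (0.41) and Tomm22 (-0.59) to Tomm20 (0.53) on the log2 scale, and Dlst (0.33) was the highest of the tricarboxylic acid cycle.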

How the data were processed

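RNA was extracted from 18 cultures, and a company prepared and sequenced the libraries. The authors deposited raw counts, whole numbers of reads per gene and culture without normalization. The submitters' processing notes name CASAVA, STAR 2.5 and DESeq2 1.14.1 and the builds GRCm38 and mm10. The counting tool, strandedness and treatment of reads with several placements are not given in the sources used here. Reads from a gene and an overlapping antisense gene therefore cannot be told apart.

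Genotype, line and culture were read from the sample labels and column names. Cultures of a line share a tumor, so their counts were added up. The 6 lines were filtered with filterByExpr and scaled by TMM. Genotypes were tested with the quasi-likelihood method of edgeR, and p values were adjusted over all genes tested by Benjamini-Hochberg (edgeR 4.0.16, limma 3.58.1, DESeq2 1.42.0, R 4.3.3). The study's methods and its legends describe the replicates differently. CPM and log2 fold changes were computed from these counts, and lengths and 50-base words from the principal transcripts of GENCODE M21. Genes named were the extremes of each group, the 5 lowest p values, all mitochondrial genes, the isoforms of complex IV, the 3 members of at least 10 CPM with the widest spread between lines, the most abundant of each group, the extremes of each pathway list and genes passing the test, except 1 list extreme not reported here; Ndufb2, Ndufb5, Ndufb9, Ndufs1, Ndufv1, Sdha, Uqcrq, Uqcrc1, Uqcrc2, Uqcrfs1, Atp5j2, Atp5g2, Atp5a1, Cyc1, Ppargc1a, Nrf1, Gabpa and Yy1 were added after their values were seen. The members and lists were chosen with earlier results of these data known. Summed counts of near copies, and the repeat of the unadjusted counts with each line left out, were added after seeing the data. The scripts were tested on simulated data. Total counts per line of 65206479 to 73065228 set the precision, and intervals cover counting error only, as no molecular identifiers are stated.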

Additional observations from a re-analysis of the deposited data

Results flagged for a closer look

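Of 58 sets of 9 cultures of 1 genotype, 2 had a value far from the others by Dixon's test, where chance gives about 1 in 20. In culture 1 of Nf1/Cdkn2a dKO line 1, Sdhd was at 63.3 CPM, with the next lowest culture at 81.4. The same culture had the highest ratio of mitochondrial to nuclear counts, 4.11, with the next at 3.02. Nuclear members took 0.718% of its counts, against 0.874 and 0.854% in the other cultures of the line. Mitochondrial members took 2.95%, against 2.46 and 2.05%. Atp5k was at 3.69 CPM in it, against 23.6 and 19.4, while Sdha was level at 205 against 208 and 202.5. This culture is part of the line 1 sums, so its deviation is not confined to the flagged values.

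Counts also fell on near copies that are not members. For the mitochondrial genes these were 7430 counts on Gm28661 (copy of mt-Co2), 9836 on Gm10925 (mt-Atp6), 4346 on Gm28437 (mt-Co3), 4501 on Gm28438 (mt-Nd3), 384 on Gm10222 (mt-Nd4l) and 2437 on Gm28439 (mt-Nd4). Gm29216 and Gm13340, copies of parts of mt-Co1, had 3448 and 2082. BC002163, a copy of Ndufs5, had 14903 counts.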

How the results depend on the processing

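Genes called among all tested numbered 274, 2171 with DESeq2 on the 6 lines, 6096 with edgeR on the 18 cultures, 2173 with limma-voom with a random term for the line, 423 with raw totals, and 0 to 172 with a line left out (172, 27 and 107 without Nf1/p53 dKO lines 1, 2 and 3; 0, 2 and 23 without the Nf1/Cdkn2a dKO lines). Members called were 6, 36, 4 and 1 with the first 4, 1 without a filter, and 0 to 0 with a line left out. Members with an unadjusted p under 0.05 numbered 7 to 16 lower and 0 to 3 higher with a line left out.

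With the line number as a replicate block 0 genes and 0 members were called, and with the culture number as a replicate block on the 18 cultures 5681 genes and 34 members. Samples sharing a number did not deviate together (r of -0.10, -0.13 and -0.08 for lines; median -0.0016 for cultures), so the numbers do not pair the samples.

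Raw totals moved the median of all genes from -0.02 to -0.16, the split of calls from 97 higher and 177 lower to 86 and 337, the members fitted lower from 71 to 89, and the medians of complex I to -0.28 and of the assembly factors to -0.36. They reversed Sdhc (-0.041) and Uqcr11 (-0.011). With a line left out, Sdhc ran from -0.074 (without Nf1/p53 dKO line 3) to 0.19, Uqcr11 from -0.14 to 0.31, Ndufaf3 from -0.053 to 0.30 and mt-Nd3 from -1.77 to 0.05 (without Nf1/p53 dKO line 2), so these signs are not settled. Group medians then ran from -0.20 to -0.07 in complex I, -0.10 to 0.03 in II, -0.21 to 0.08 in III, -0.34 to -0.14 in IV, -0.24 to 0.01 in V, -0.28 to -0.18 in the assembly factors and -0.17 to 0.08 in the mitochondrial genes, and the difference in mitochondrial share from -0.612 to -0.265 percentage points. The causes were not tested. DESeq2's size factors, upper-quartile scaling, TMM without the mitochondrial genes and a minimum of 10 counts in every line left the calls of members at 0.

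The number of lines, 3 a genotype, limits the precision, and 24 members share over 20% of their words with other genes, so their counts are less certain.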
